A study of Homo sapiens with 58 samples.

Results

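8 genes that are widely used as readouts of TGF-beta and YAP activity were followed through 58 microarrays of HaCaT, an immortalized human skin keratinocyte line, and 4 of its derivatives. The genes were CCN1 (CYR61), CCN2 (CTGF), ANKRD1, TNC, TGFBI, SKIL, SMAD7 and TGFB2. They were chosen by name for these roles, with earlier results of these data known, and make up 8 of the 19775 genes that had a probe set assigned to a single gene symbol. Each gene was read from the probe set with the highest mean over the 58 arrays, and all 8 had one. TGF-beta binds a receptor kinase pair that phosphorylates SMAD2 and SMAD3, which then enter the nucleus with SMAD4 and switch on target genes, among them the pathway's own inhibitors. YAP and TAZ are co-activators that the Hippo kinases hold in the cytoplasm. When released they drive transcription through the TEAD factors, and in keratinocytes both pathways are tied to growth, adhesion and wound repair.

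The study profiled existing HaCaT derivatives, each with a pathway gene added to a shared genetic background, to find the expression changes that go with it. In serum, 3 arrays were run of parental HaCaT and 3 of HaCaT-vector, which carries the empty vector. A further 3 arrays in serum were of HaCaT-HRAS, with the allele HRAS-VAL12D, 3 of HaCaT-p65, with the NF-kappa B subunit p65 (RELA), and 5 of HaCaT-EGFR, with EGFR. HaCaT-EGFR serum replicates 4 and 5 are from the sixth processing date, at 4 and 8 h. The other serum arrays without an inhibitor are from the first date. Serum-starved cells were profiled for HaCaT-vector (4 arrays), HaCaT-EGFR (7) and HaCaT-p65 (3). EGF was added after starvation to HaCaT-vector (4) and HaCaT-EGFR (7), and TNF to HaCaT-vector (3) and HaCaT-p65 (5), for 4 or 8 h. The PI3K inhibitor LY294002 and the inhibitor labelled U1026 were each given with EGF on 1 array of HaCaT-vector and 1 of HaCaT-EGFR. The EGFR inhibitor gefitinib was given to HaCaT-EGFR with EGF (2 arrays) or in serum (2). Each introduced gene is represented by a single line, so the effect of the gene and any other difference between lines cannot be told apart. Nothing in the sources says that replicate arrays came from separate cultures, so the p-values measure only the spread between arrays.

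All values are deposited log2 expression values, so a difference of 1 is a factor of 2 in signal. Differences were tested with limma across all genes, and a gene was called at a Benjamini-Hochberg adjusted p under 0.05. The 5 keratinocyte markers measured, KRT5, KRT14, ITGA6, CDH1 and SFN, had means over the 58 arrays of 11.25 to 12.46. Markers of fibroblasts, endothelium, melanocytes and leukocytes had means of 3.74 to 6.74. The HRAS probe set read 9.90 to 10.08 in HaCaT-HRAS and 7.49 to 7.67 in HaCaT-vector in serum. RELA read 10.13 to 10.42 in HaCaT-p65 and 9.93 to 10.02 in HaCaT-vector, a log2 difference of 0.27 that was not called (adjusted p = 0.256). Of 9 EGFR probe sets, 2 were called higher in HaCaT-EGFR than in HaCaT-vector, both cultured in serum, by 1.00 and 0.98, and the other 7 were not called.

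TEAD factors bind the bases GGAATG, and several of these genes carry it close to their start. The 250 bases before the start are shown for 3 genes that hold the motif, because CCN2 and ANKRD1 moved in opposite directions in HaCaT-HRAS. The sequences are from RefSeq (GRCh38.p14), written 5′ to 3′ on the strand of the gene, with GGAATG or its reverse complement CATTCC in capitals.
CCN2 promoter (chr6:131951373-131951622, minus strand): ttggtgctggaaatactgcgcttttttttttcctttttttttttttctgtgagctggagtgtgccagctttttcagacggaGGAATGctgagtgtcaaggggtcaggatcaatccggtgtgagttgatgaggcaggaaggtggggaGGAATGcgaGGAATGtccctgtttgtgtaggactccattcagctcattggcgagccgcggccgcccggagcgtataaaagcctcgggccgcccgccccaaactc
ANKRD1 promoter (chr10:90921088-90921337, minus strand): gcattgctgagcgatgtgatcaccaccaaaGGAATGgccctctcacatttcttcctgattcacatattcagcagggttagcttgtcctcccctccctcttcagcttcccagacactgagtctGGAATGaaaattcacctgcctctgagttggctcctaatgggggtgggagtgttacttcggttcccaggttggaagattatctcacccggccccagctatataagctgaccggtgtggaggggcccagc
TGFB2 promoter (chr1:218345086-218345335, plus strand): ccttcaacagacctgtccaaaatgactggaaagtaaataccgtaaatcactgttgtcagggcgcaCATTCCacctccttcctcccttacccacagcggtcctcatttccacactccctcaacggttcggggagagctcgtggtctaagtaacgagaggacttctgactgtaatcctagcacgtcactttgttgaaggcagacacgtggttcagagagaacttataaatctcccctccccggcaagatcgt

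The CCN2 window held 3 copies, starting 169, 104 and 95 bases before the gene start. The ANKRD1 window held 2, at 220 and 128 bases, and the TGFB2 window 1, at 185 bases. Of 27305 human promoter windows of this length, 12% held at least 1 copy on either strand, 0.985% held 2 or more and 0.0952% held 3 or more. The windows of TNC, TGFBI, SKIL and SMAD7 held none, and CCN1 was not analysed here because the promoter table used had no window for it. The short SMAD motif CAGAC, searched on both strands, occurred in 37.9% of all windows. It occurred 2 times in the windows of ANKRD1, SMAD7 and TGFB2, 1 time in those of CCN2, TNC and SKIL, and not in that of TGFBI. SMAD7 is shown because it was lower in HaCaT-HRAS, with CAGAC or its reverse complement GTCTG in capitals.
SMAD7 promoter (chr18:48950966-48951215, minus strand): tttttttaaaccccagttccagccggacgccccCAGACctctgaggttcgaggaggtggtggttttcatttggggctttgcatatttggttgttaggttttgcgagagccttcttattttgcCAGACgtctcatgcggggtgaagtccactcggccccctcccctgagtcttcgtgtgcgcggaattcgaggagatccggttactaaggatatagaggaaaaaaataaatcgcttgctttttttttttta

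The AP-1 pattern TGANTCA, searched with any base at N, was found 1 time, as TGATTCA in the ANKRD1 window. The pattern is held by 6.57% of all windows. The kappa B motif was found 1 time, in the CCN2 window, where it covers the GGAATG copy 95 bases before the gene start. Of all windows 5.07% held it, and the CArG box bound by SRF was found in no member's window. These matches describe the letters of the windows and were not tests of binding.

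The members differed most between cell lines grown in serum. HaCaT-HRAS stood furthest from HaCaT-vector: ANKRD1 and TGFBI were higher and CCN2, TNC and SMAD7 lower. Of the 8 members 5 were called, where 18.2% of all genes were called, with 2 members higher (9.57% of all genes) and 3 lower (8.63%). HaCaT-EGFR had 3 members called against HaCaT-vector (7.87% of all genes), 1 higher (3.97%) and 2 lower (3.9%). HaCaT-p65 had 2 called (7.18%), both lower (3.19%). The empty vector line itself had 2 called against parental HaCaT, where 2.87% of all genes were called, and both were lower (1.64%). All 3 comparisons with HaCaT-vector share its 3 arrays.

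**Figure D1:**
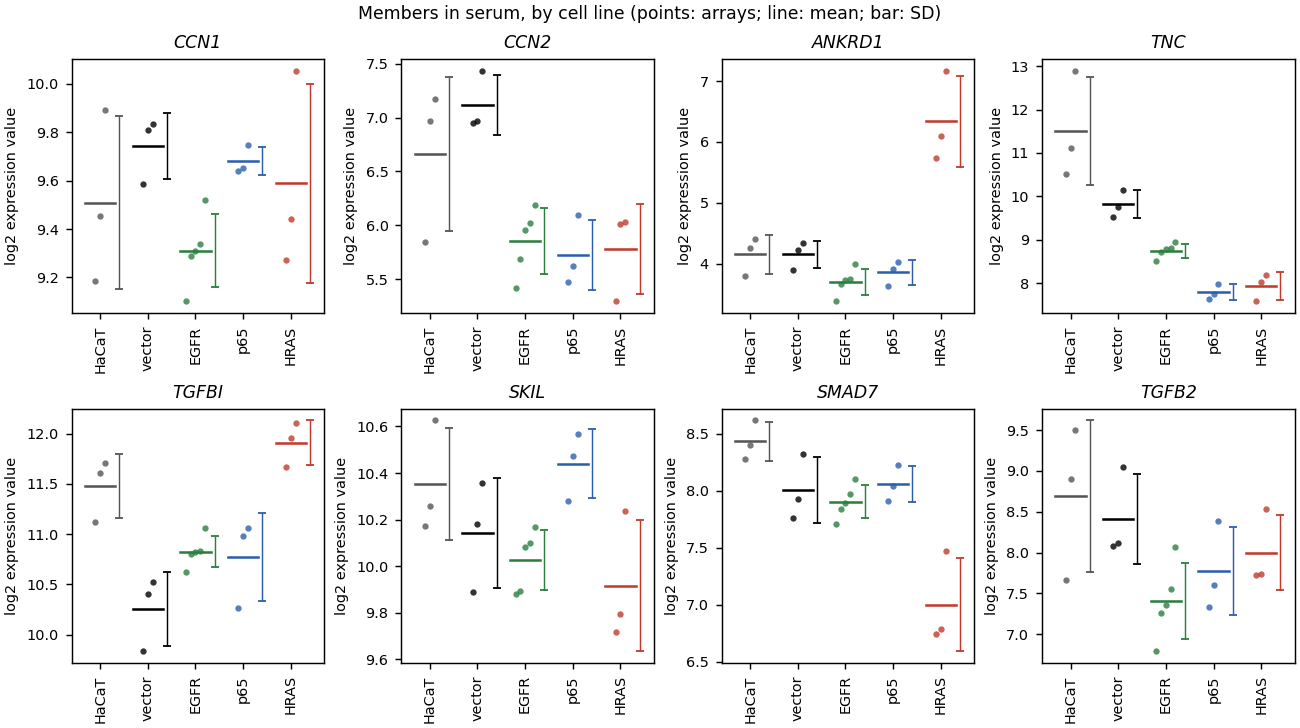
log2 expression value (y axis) of the 8 members in serum for the 5 lines (x axis), each point an array, with the mean as a horizontal line and the SD as a bar; axes are scaled per gene. ANKRD1 lies between 5.74 and 7.17 in the 3 HaCaT-HRAS arrays and at or below 4.40 in every other line in serum.

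ANKRD1 encodes a nuclear ankyrin repeat protein known from muscle and is a standard YAP target. Its 3 HaCaT-HRAS arrays read 7.17, 5.74 and 6.11. The HaCaT-vector arrays read 3.90, 4.22 and 4.34, and parental HaCaT 4.40, 3.80 and 4.25. The HaCaT-HRAS arrays were all above those of the other lines. The mean of ANKRD1 over all arrays, 4.11, was at the 19.0 percentile of genes, and with no detection calls used here the level of the other lines is not shown to be above background. The changes below are therefore fitted differences in signal and not fold changes in RNA. Over HaCaT-vector the log2 change was 2.18 ± 0.29 (SE; 95% interval 1.61 to 2.76), with an adjusted p of 1.11e-07. The change was 2.63 over HaCaT-EGFR (adjusted p = 1.47e-09) and 2.48 over HaCaT-p65 (6.09e-09), where 19.4% and 20.8% of all genes were called. HaCaT-EGFR and HaCaT-p65 did not pass against HaCaT-vector, at -0.45 (95% interval -1.03 to 0.13) and -0.30 (-0.87 to 0.28).

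CCN2 and CCN1 encode paralogous matricellular proteins, secreted regulators of adhesion that are direct YAP-TEAD targets. CCN2 read 7.44, 6.96 and 6.95 in HaCaT-vector in serum. It read 6.03, 5.29 and 6.01 in HaCaT-HRAS, 6.09, 5.62 and 5.47 in HaCaT-p65, and 5.95, 5.42, 6.19, 6.02 and 5.68 in HaCaT-EGFR. No array of the lines with an introduced gene reached the lowest HaCaT-vector array. The log2 changes were -1.34 in HaCaT-HRAS (adjusted p = 0.00123), -1.39 in HaCaT-p65 (0.00207) and -1.26 in HaCaT-EGFR (0.0052), each with an SE of 0.31. Among the 3 lines CCN2 differed by -0.08, 0.05 and -0.13 and no pair was called. The HaCaT-EGFR call was lost without HaCaT-EGFR replicate 2 (largest adjusted p = 0.0644), and the other 2 calls held without any single array. Parental HaCaT read 6.97, 5.85 and 7.17, so its array at 5.85 lies within the range of the 3 lines. Against it only HaCaT-HRAS was called, at -0.89 (adjusted p = 0.0412), where 17.7% of all genes were called. The uncalled changes over parental HaCaT were of similar size, -0.94 in HaCaT-p65 and -0.81 in HaCaT-EGFR. In those comparisons 5.94% and 3.88% of all genes were called.

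CCN1 was called in none of the 3 lines. It read 9.84, 9.59 and 9.81 in HaCaT-vector and 10.06, 9.27 and 9.44 in HaCaT-HRAS, and these groups overlap. The log2 changes over HaCaT-vector were -0.15 (95% interval -0.58 to 0.27) in HaCaT-HRAS, -0.06 (-0.49 to 0.36) in HaCaT-p65 and -0.43 (-0.86 to -0.01) in HaCaT-EGFR, with adjusted p from 0.291 to 0.956. Whether CCN1 and CCN2 changed differently was not tested.

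TNC encodes tenascin-C, a large hexameric matricellular protein of wounds and tumour stroma. Parental HaCaT read 10.51, 12.90 and 11.12, the widest group of any member, and HaCaT-vector 10.16, 9.52 and 9.76. HaCaT-EGFR read 8.80, 8.50, 8.94, 8.78 and 8.72, HaCaT-p65 7.98, 7.75 and 7.63, and HaCaT-HRAS 7.58, 8.18 and 8.03. The groups did not overlap from parental HaCaT to HaCaT-vector, from HaCaT-vector to HaCaT-EGFR, or from HaCaT-EGFR to either of the last 2, which overlapped each other. HaCaT-vector was lower than parental HaCaT by -1.70 ± 0.33 (SE; adjusted p = 0.00126). HaCaT-p65 was a further -2.03 lower than HaCaT-vector (adjusted p = 3.1e-05) and HaCaT-HRAS -1.88 (3.21e-05). HaCaT-EGFR was lower than HaCaT-vector by -1.07 with an adjusted p of 0.0391. That last call was lost without any 1 of 5 of the 8 arrays: HaCaT-vector replicates 1 and 3 and HaCaT-EGFR replicates 1, 2 and 3, with a largest adjusted p of 0.21. Fitted on the 6 parental and vector arrays alone, the vector difference had an adjusted p of 0.466. Between the lines with an introduced gene no TNC difference was called: HaCaT-p65 was -0.96 below HaCaT-EGFR (adjusted p = 0.0623) and HaCaT-HRAS -0.82 (0.0846). No member was called by limma in HaCaT-p65 over HaCaT-EGFR, where 9.78% of all genes were called and 2 members had an unadjusted p under 0.05. Against parental HaCaT, which shares arrays with the comparison above, TNC was lower by -2.76 in HaCaT-EGFR, -3.72 in HaCaT-p65 and -3.58 in HaCaT-HRAS, all called, where 3.88%, 5.94% and 17.7% of all genes were called. The TNC probe set shown is 1 of 3, and the other 2, with means of 4.29 and 3.98, were called for HaCaT-vector over HaCaT (-1.43 and -1.73) but for none of the 3 lines over HaCaT-vector.

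TGFBI encodes a secreted, integrin-binding matrix protein named for its induction by TGF-beta. It read 12.11, 11.95 and 11.67 in HaCaT-HRAS and 10.52, 10.41 and 9.84 in HaCaT-vector, with no overlap. The log2 change was 1.66 ± 0.18 (SE; adjusted p = 2.14e-09), a 3.15-fold higher signal. Parental HaCaT, at 11.12, 11.71 and 11.61, was itself above HaCaT-vector, which was lower by -1.22 (adjusted p = 2.32e-05). Fitted on those 6 arrays alone, that difference had an adjusted p of 0.195. Against parental HaCaT, HaCaT-HRAS was higher by 0.43 and was not called (adjusted p = 0.103). HaCaT-HRAS was higher than HaCaT-EGFR by 1.08 (adjusted p = 1.26e-05) and than HaCaT-p65 by 1.14 (4.77e-06). HaCaT-EGFR was higher than HaCaT-vector by 0.57 (adjusted p = 0.0425). This call was lost without HaCaT-EGFR replicate 1 or 3 or HaCaT-vector replicate 3, with a largest adjusted p of 0.399. It was also lost with a replicate block (adjusted p = 0.0504), without the sixth date (0.0672) and when only the groups compared were fitted (0.122). HaCaT-p65 differed from HaCaT-vector by 0.51 and was not called (adjusted p = 0.0864). Against parental HaCaT the sign turned and both were called, HaCaT-EGFR at -0.65 (adjusted p = 0.0302) and HaCaT-p65 at -0.71 (0.0103).

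SMAD7 and SKIL both restrain the SMADs and are themselves induced by them: SMAD7 blocks the receptor, and SKIL (SnoN) represses SMAD-bound promoters. SMAD7 read 7.47, 6.74 and 6.79 in HaCaT-HRAS and 8.32, 7.76 and 7.92 in HaCaT-vector, with no overlap. The log2 change was -1.005 ± 0.18 (SE; adjusted p = 5.17e-05). It was -1.43 over parental HaCaT (8.95e-08), -0.90 over HaCaT-EGFR (0.00024) and -1.06 over HaCaT-p65 (2.05e-05). SKIL read 10.24, 9.72 and 9.79 in HaCaT-HRAS and 10.36, 9.89 and 10.18 in HaCaT-vector, overlapping, with a log2 change of -0.23 (adjusted p = 0.485). Over HaCaT-p65, at 10.28, 10.47 and 10.57, SKIL in HaCaT-HRAS was lower by -0.52 (adjusted p = 0.0279).

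TGFB2, one of the TGF-beta ligands, had wide groups in serum: 8.90, 7.67 and 9.49 in parental HaCaT and 9.05, 8.075 and 8.11 in HaCaT-vector. It read 8.0705, 6.79, 7.36, 7.26 and 7.55 in HaCaT-EGFR. All 5 HaCaT-EGFR arrays lay below the lowest HaCaT-vector array, the highest of them by almost nothing, and the log2 change of -1.004 was not called (adjusted p = 0.0759). With a replicate block, which assumes that same-numbered arrays are pairs, it was called (adjusted p = 0.0175). Over parental HaCaT it was -1.28 and called (adjusted p = 0.0272), 1 of 3 members called lower there beside TNC and TGFBI, where 2.28% of all genes were called lower. In HaCaT-p65 and HaCaT-HRAS it did not pass against HaCaT-vector, at -0.64 (95% interval -1.35 to 0.08) and -0.41 (-1.12 to 0.30).

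**Figure D2:**
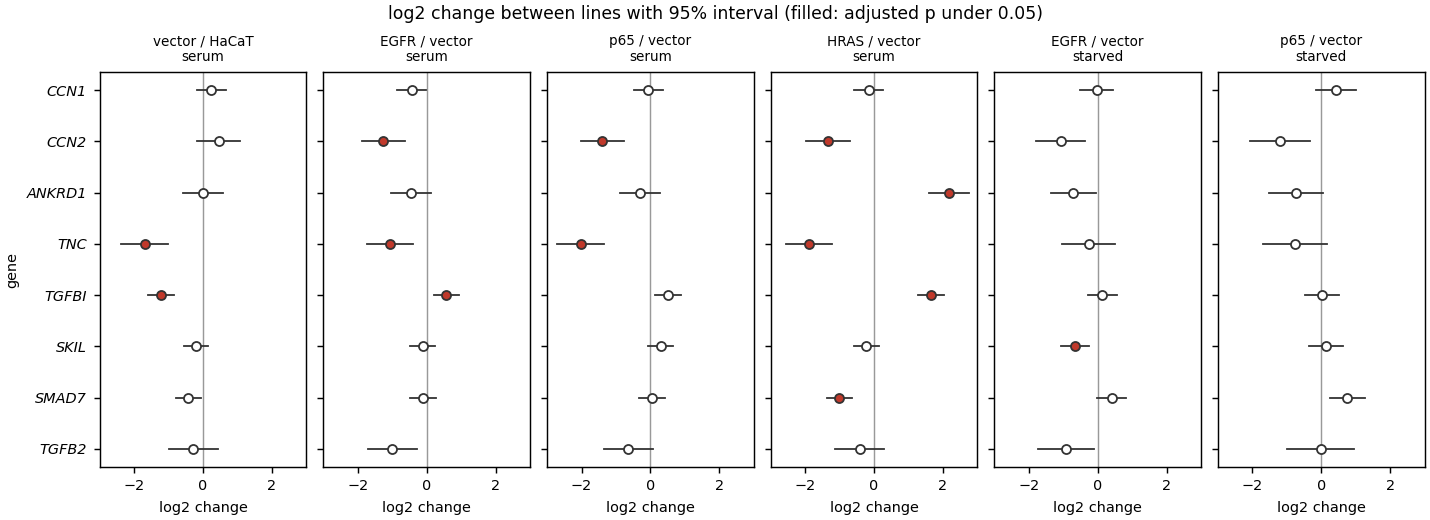
log2 change (x axis) of each member (y axis) in 6 comparisons between lines, with 95% intervals; filled points were called at an adjusted p under 0.05. CCN2 and TNC lie left of 0 in all 3 serum comparisons with HaCaT-vector, and ANKRD1 and TGFBI lie right of 0 in HaCaT-HRAS at 2.18 and 1.66.

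Further genes of the same pathways, from lists chosen with earlier results known, were read in the same fit. The shares of all genes called in HaCaT-HRAS over HaCaT-vector, 9.57% higher and 8.63% lower, stand as the background for the counts that follow. Of 9 TGF-beta receptors and SMADs, 4 rose and 1 fell. TGFBR3, the betaglycan co-receptor, rose by 2.31 and SMAD3 by 0.64, and the kinase receptor TGFBR1 fell by 0.63 on the log2 scale. Of 11 ligands and ligand-handling genes, 2 rose, the latent TGF-beta binding proteins LTBP2 (3.12) and LTBP1 (1.59), and none fell. Of 17 other YAP and TAZ targets, 2 rose and 6 fell, with a median change of -0.32 beside -0.04 for all genes. IGFBP3 (-1.74), GADD45A (-1.01) and PTPN14 (-0.77) were among those that fell, and FOXF2 (2.21) was among those that rose. Of 23 Hippo pathway and TEAD genes, 2 rose and 6 fell, with YAP1 at -0.54, the TEAD cofactor VGLL1 at -1.43 and WWTR1, which encodes TAZ, at 0.49. LATS2, AMOTL2 and PTPN14 are in both this list and that of the YAP and TAZ targets, so the counts overlap. Of 14 other TGF-beta induced genes, only FN1 (fibronectin) rose, by 2.27, and only CDKN2B fell, at -0.67. SPARC, another matricellular gene, fell at -1.50, 1 of 2 lower and 1 higher among 14 such genes.

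Cell type markers also differed in HaCaT-HRAS. Of 5 keratinocyte markers 2 were lower than in HaCaT-vector, KRT14 at -2.33 and SFN at -0.89, and the mean of the 5 was 11.28 to 11.50 per array against 12.07 to 12.38. Of 4 endothelial markers only CDH5 (VE-cadherin) was higher, at 4.29, and the mean of the 4 was 5.55 to 5.85 against 4.60 to 4.67. No fibroblast, melanocyte or leukocyte marker was called in this comparison. In HaCaT-EGFR over HaCaT-vector the fibroblast marker COL3A1 was higher by 2.24, 1 of 7, and KRT14 was lower by -0.72. In HaCaT-p65 no marker was called. In cultures measured in bulk, fewer cells of a type and less RNA per cell cannot be told apart. The part of these differences in the members' values was not tested.

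In HaCaT-p65 and HaCaT-EGFR the lists shared some of these genes. LTBP2 was higher than in HaCaT-vector in serum by 2.59 in HaCaT-p65 and 1.36 in HaCaT-EGFR, and FN1 by 1.76 and 1.27. SMAD3 rose in HaCaT-p65 by 1.26 and was not called in HaCaT-EGFR. BAMBI, a decoy receptor, fell in HaCaT-EGFR by 1.36 on the log2 scale. SPARC was lower by -1.06 in HaCaT-EGFR and -0.82 in HaCaT-p65. Of the 17 YAP and TAZ targets, 3 rose in HaCaT-EGFR, where 3.97% of all genes were called higher, and 2 were called in HaCaT-p65, both higher, where 7.18% of all genes were called in either direction.

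Fewer members were called between lines without serum, 1 in HaCaT-EGFR and 0 in HaCaT-p65. CCN2 in starved HaCaT-vector read 6.94, 6.91, 7.19 and 7.14, above all 7 starved HaCaT-EGFR arrays (lowest 5.44, median 5.96, highest 6.62) and above HaCaT-p65 at 5.55, 6.15 and 5.84. The log2 changes were -1.07 (adjusted p = 0.0539) and -1.20 (0.102) and neither was called. With a replicate block both were, at -1.27 (adjusted p = 0.00491) and -1.26 (0.0302). All starved HaCaT-vector arrays are from 4 h, while those of HaCaT-EGFR and HaCaT-p65 are from 4 and 8 h. SKIL was the only member called in starved HaCaT-EGFR over HaCaT-vector. There 7.89% of all genes were called by limma and 4 members had an unadjusted p under 0.05. SKIL read 9.12 to 9.83 with a median of 9.25 in HaCaT-EGFR against 9.94, 9.97, 9.96 and 10.18, a log2 change of -0.66 (adjusted p = 0.0332). The call was lost without HaCaT-vector replicate 4 or HaCaT-EGFR replicate 5 or 7, with a largest adjusted p of 0.854. It was also lost with arrays centred on their medians, where the change was -0.61 (adjusted p = 0.077), with the probe set of largest SD (-0.71, 0.405), and when only the groups compared were fitted (-0.88, 0.187). On the 1 date that held both lines the difference was -0.88. TGFB2 differed by -1.05 on that date and was not called. It read 7.07 to 8.55 in HaCaT-EGFR, all below HaCaT-vector at 8.76 to 8.98. TNC, which separated the lines in serum, differed by -0.26 (95% interval -1.04 to 0.51) between starved HaCaT-EGFR and HaCaT-vector. In starved HaCaT-p65 TNC read 7.07 to 7.57, below starved HaCaT-vector at 7.98 to 8.16, and was not called. No member was called in starved HaCaT-p65 over HaCaT-vector, where limma called 5.3% of all genes and 2 members had an unadjusted p under 0.05. SMAD7 also did not overlap between these groups, at 8.05, 8.09 and 7.72 in HaCaT-p65 and 7.04, 7.24, 7.16 and 7.35 in HaCaT-vector, with a change of 0.75 (adjusted p = 0.075). These 2 groups share no processing date, so that comparison rests on dates linked through the other groups.

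Serum against starvation within a line was judged on few shared dates. In HaCaT-EGFR, SKIL read 10.10, 9.89, 10.08, 10.17 and 9.88 in serum, above all 7 starved arrays. The log2 change was 0.67 ± 0.19 (SE; adjusted p = 0.0335), the only member called, where 3.25% of all genes were called. It was lost without HaCaT-EGFR serum replicate 4 or starved replicate 5 or 7 (largest adjusted p = 0.584). It was also lost with median-centred arrays (adjusted p = 0.0641), with the SKIL probe set of largest SD, where the change was 1.01 (0.158), and when only the groups compared were fitted (0.208). On the 1 date with both media the difference was 0.72. TNC in HaCaT-EGFR serum also lay above all 7 starved arrays (lowest 6.96, median 7.90, highest 8.41), with a change of 0.92 that was not called (adjusted p = 0.151).

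In HaCaT-vector TNC read 9.52 to 10.16 in serum against 7.98, 8.07, 8.14 and 8.16 when starved, a change of 1.73 with an adjusted p of 0.133. SMAD7, at 7.76 to 8.32 in serum, lay above the same starved arrays with a change of 0.81 (adjusted p = 0.248). TGFBI went the other way, at 9.84 to 10.52 in serum against 10.86 to 11.08 when starved, a change of -0.75. In HaCaT-p65 the change in TNC was 0.48 (adjusted p = 0.881). The largest change there was in TGFB2, -1.07, at 7.34 to 8.38 in serum against 8.68 to 8.96 when starved. No member was called in either line, where limma called 0.976% and 0.703% of all genes and 3 and 0 members had an unadjusted p under 0.05. The serum and starved arrays of these 2 lines share no date.

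Neither EGF nor TNF gave a called member. With EGF in HaCaT-EGFR limma called none of the 8, where 8.8% of all genes were called and 2 members had an unadjusted p under 0.05. CCN1 was the largest difference, at 9.04 to 9.56 with a median of 9.23 with EGF and 9.04 to 10.08 with a median of 9.57 when starved, groups that overlap. Its change was -0.31 (95% interval -0.59 to -0.03; adjusted p = 0.179), with the EGF mean lower on all 3 dates. With EGF in HaCaT-vector limma called none, where 1.01% of all genes were called and no member had an unadjusted p under 0.05. The changes there ran from -0.36 for CCN2 to 0.29 for TGFB2. In the test of the difference between the EGF responses of the 2 lines limma called no member and 0% of all genes, and no member had an unadjusted p under 0.05. The HaCaT-vector arrays are all from 4 h and the HaCaT-EGFR arrays from 4 and 8 h, so line and time are mixed in that test. Its 95% intervals ran from -0.74 to 0.20 for CCN1 and from -0.41 to 0.98 for CCN2.

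Splitting HaCaT-EGFR into 4 and 8 h, limma called no member at either time or for the difference between them. At those times 5.87% and 0.339% of all genes were called, and for the difference 0%. The count of members with an unadjusted p under 0.05 was 0 at 4 h and 1 at 8 h, TGFBI at -0.51 (adjusted p = 0.382). Of 11 TGF-beta ligands and ligand-handling genes 3 rose with EGF in HaCaT-EGFR and 1 in HaCaT-vector, against 8.8% and 1.01% of all genes called. INHBA, the activin A subunit of the TGF-beta family, rose by 0.91 in HaCaT-EGFR and 1.01 in HaCaT-vector, and TGFB1 rose by 0.88 in HaCaT-EGFR. AMOTL2, a YAP target and YAP-binding protein, fell by 0.25 and 0.47 on the log2 scale in the same lines. Of 17 YAP and TAZ targets 4 rose and 3 fell in HaCaT-EGFR, and 1 fell in HaCaT-vector.

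With TNF in HaCaT-p65 limma called none of the 8 and 2.03% of all genes, and 2 members had an unadjusted p under 0.05. TGFBI read 10.34, 10.55, 10.84, 10.69 and 10.68 with TNF and 11.08, 10.83 and 11.16 when starved, with 1 TNF array just above the lowest starved one. The change was -0.40 (95% interval -0.74 to -0.07; adjusted p = 0.18). SKIL read 10.74, 10.72, 10.35, 10.27 and 10.52 against 10.05, 10.30 and 10.07, with 1 TNF array just below the highest starved one, a change of 0.38 (adjusted p = 0.196). The study's sample sheet describes HaCaT-p65 TNF replicate 5 as a control, while its label gives TNF. It was kept as labelled, and the count of called members was 0 without it as well. In HaCaT-vector 0.905% of all genes were called, the members ran from -0.35 for ANKRD1 to 0.34 for TNC, and none had an unadjusted p under 0.05. In the test of the difference between the 2 TNF responses limma called no member and 0.0101% of all genes, and 3 members had an unadjusted p under 0.05. That test too sets HaCaT-vector arrays from 4 h against HaCaT-p65 arrays from 4 and 8 h. Split into 4 and 8 h in HaCaT-p65, TNF gave no called member by limma, where 0.445% and 0.41% of all genes were called and 0.0354% for the difference. TGFBI at 4 h was the 1 member with an unadjusted p under 0.05 at either time, at -0.48 (adjusted p = 0.227). Of the 11 ligand genes only INHBA rose with TNF, in both lines, by 0.84 in HaCaT-p65 and 1.27 in HaCaT-vector.

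**Figure D3:**
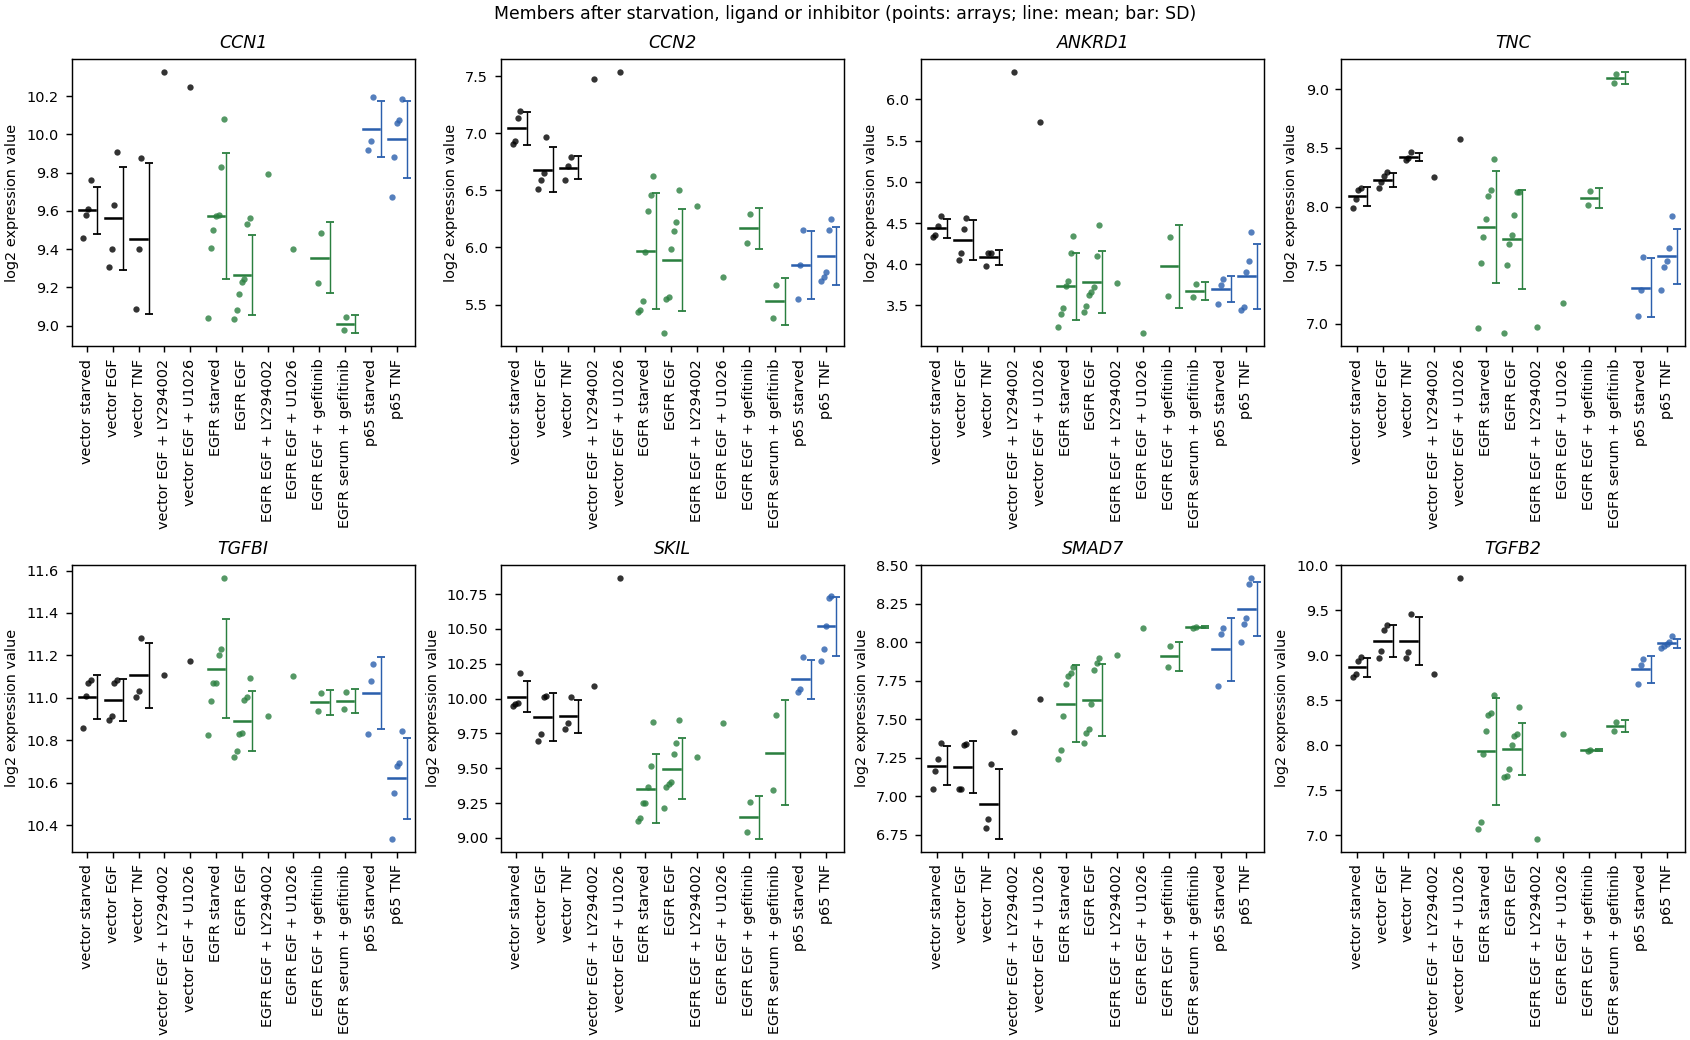
log2 expression value (y axis) of the 8 members in starved, ligand and inhibitor groups (x axis), each point an array, with the mean as a horizontal line and the SD as a bar where a group has over 1 array; axes are scaled per gene. No member was called with EGF or TNF, and ANKRD1 reads 6.33 and 5.72 on the 2 HaCaT-vector arrays with LY294002 and U1026.

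The inhibitors of EGF signaling gave 1 call among the members. Gefitinib was tested on 2 arrays with EGF and 2 in serum, and limma called no member in either, where 1.81% and 1.79% of all genes were called and no member had an unadjusted p under 0.05. The widest difference was TGFB2 in serum, at 8.16 and 8.26 with gefitinib, above all 5 arrays without it. Its change was 0.80 (95% interval -0.07 to 1.68; adjusted p = 0.45). SKIL with gefitinib and EGF read 9.04 and 9.26, against 9.21 to 9.84 with EGF alone, a change of -0.35 (adjusted p = 0.465).

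For LY294002 and U1026 the effect was averaged over the 2 lines, each with 1 treated array, whose spread is assumed to be that of the other groups. SKIL read 10.87 with U1026 in HaCaT-vector, above its EGF arrays at 9.75, 10.02, 10.01 and 9.70, and 9.83 in HaCaT-EGFR, within the EGF arrays there. The mean change was 0.66 ± 0.18 (SE; adjusted p = 0.0335), and 3.02% of all genes were called. The call was lost without HaCaT-vector EGF replicate 4 or HaCaT-EGFR EGF replicate 6 (largest adjusted p = 0.338). It was also lost with the SKIL probe set of largest SD, where the change was 0.18 (adjusted p = 0.953), with median-centred arrays (0.0517), and when only the groups compared were fitted (0.121). Of the 17 YAP and TAZ targets 2 rose with U1026, GADD45A by 0.99 and AMOTL2 by 0.98, and 1 fell, FJX1 at -0.59. Of 14 TGF-beta induced genes 3 rose, BHLHE40 by 1.34, the cell cycle inhibitor CDKN1A by 0.91 and SNAI2 by 0.78, and none fell.

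ANKRD1 gave the widest split between the lines under these inhibitors. In HaCaT-vector it read 6.33 with LY294002 and 5.72 with U1026, against 4.56, 4.05, 4.43 and 4.14 with EGF alone. In HaCaT-EGFR it read 3.78 and 3.17, against 3.42 to 4.48 with a median of 3.66. The LY294002, U1026 and HaCaT-vector EGF arrays are all from 4 h, and the HaCaT-EGFR EGF arrays are from 4 and 8 h. The change in HaCaT-vector was 2.03 for LY294002 (adjusted p = 0.0948) and 1.43 for U1026 (0.328), and in HaCaT-EGFR -0.01 (0.999) and -0.62 (0.547). These intervals and p-values rest on that assumption for single arrays. The HaCaT-EGFR values are also not shown to be above background. The difference between the lines was -2.04 for LY294002 (95% interval -3.24 to -0.84) and -2.05 for U1026 (-3.25 to -0.85). Neither was called (adjusted p = 1), and limma called 0 of 19775 genes in either test, with ANKRD1 the 1 member at an unadjusted p under 0.05 in each. The other starved and EGF arrays of HaCaT-vector on that date read 4.59 and 4.14. Averaged over lines, LY294002 changed ANKRD1 by 1.01 (adjusted p = 0.106), CCN1 by 0.65 (0.191) and CCN2 by 0.63 (0.522). None of the 8 was called for LY294002, where limma called 0.693% of all genes and 2 members had an unadjusted p under 0.05.

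**Figure D4:**
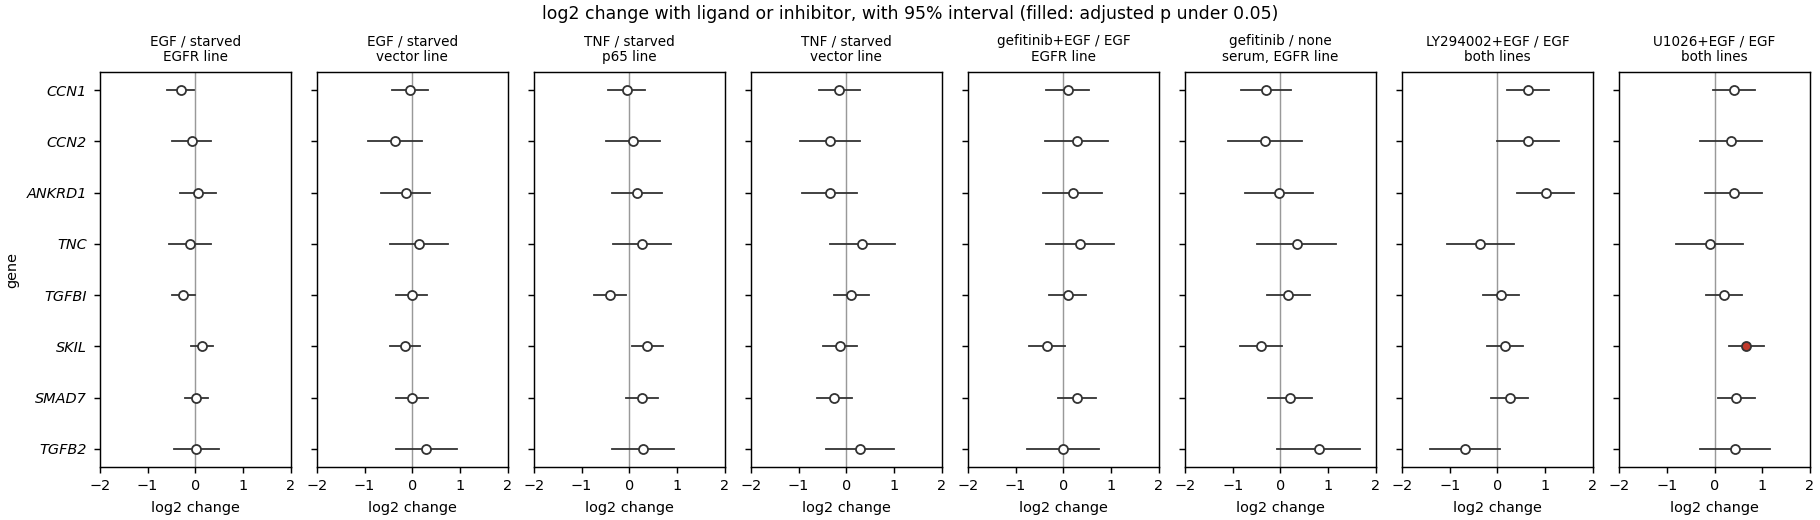
log2 change (x axis) of each member (y axis) with EGF, TNF or an inhibitor, with 95% intervals; filled points were called at an adjusted p under 0.05. The 1 filled point is SKIL with U1026, at 0.66, and the intervals of ANKRD1 and CCN1 with LY294002 lie right of 0 without being called.

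Across the 18 condition means the members spanned different widths. TNC ranged over 4.54 log2 units, more than 99.5% of genes, and ANKRD1 over 3.17, TGFB2 over 2.90 and CCN2 over 2.01. CCN1 was the narrowest at 1.32, and SMAD7, TGFBI and SKIL lay between 1.48 and 1.72. Single inhibitor arrays set some of these extremes, among them both ends for TGFB2. Over the 12 conditions with at least 3 arrays, TNC spanned 4.20, ANKRD1 2.64, TGFB2 1.75 and TGFBI 1.66. SMAD7 spanned 1.48 there, CCN2 1.39, SKIL 1.17 and CCN1 0.76. As a description without a test, the gene most like each member over the 18 condition means, among 5768 that span more than 1 unit, was TSLP for CCN1 (Pearson r = 0.829) and H2AC25 for CCN2 (0.889). It was LOC101926907 for ANKRD1 (0.873), MRTFA-AS1 for TNC (0.779) and ACAA2 for TGFBI (0.804). It was ALDH1A3 for SKIL (0.839), CCDC68 for SMAD7 (0.829) and SPRYD4 for TGFB2 (0.926). None of these is another member, and the conditions share lines and dates. Between CCN2 and CCN1 the correlation was 0.583, and between CCN2 and ANKRD1 0.549.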

How the data were processed

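RNA from HaCaT lines was hybridised to Affymetrix U133 Plus 2.0 arrays, 1 per sample, and the deposited table holds log2 expression values that the authors made with fRMA, after which processing-date effects were subtracted with limma. When the dates were fitted again on the deposited values, no coefficient exceeded 1.17e-08. Of 54675 probe sets, 41097 had 1 gene symbol, 1801 several and 11777 none. The 41097 gave 19775 genes, each read from its probe set of highest mean. No value was filtered. The number of arrays limits the precision.

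limma 3.58.1 in R 4.3.3 was fitted to 18 conditions and 6 processing dates over all 58 arrays (35 residual degrees of freedom), with Benjamini-Hochberg adjustment over the 19775 genes and a threshold of 0.05. The starved and EGF or TNF arrays of both times were pooled, and a further fit split them into 4 and 8 h. Of the comparisons, 19 were in the design and 16 were added after the data were seen, among them HaCaT-HRAS over HaCaT-EGFR and HaCaT-p65, and each line over parental HaCaT. The study's sample sheet gives another RNA isolation method for the sixth date than for the rest, so a fit without that date was added after seeing the data. The fit was tested on simulated data. Among serum arrays of the first date, deviations of same-numbered arrays of different lines correlated over 0.1 in 22 of 30 pairs (median 0.240), against 13 of 60 differently numbered pairs (median -0.167). All 3 same-numbered pairs exceeded 0.1 between HaCaT-vector and HaCaT-HRAS (0.527, 0.239 and 0.191). So did those between HaCaT-vector and HaCaT-EGFR (0.529, 0.223 and 0.216). The numbers were taken to pair the arrays there, as an assumption from the data and not from the labels. Yet HaCaT-vector array 2 correlated slightly more with array 3 of HaCaT-HRAS (0.247) and of HaCaT-EGFR (0.227) than with array 2 of either. Not all same-numbered pairs exceeded 0.1 between HaCaT-vector and HaCaT-p65 (lowest 0.0844) or parental HaCaT (lowest -0.193).

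The members, gene lists and motifs were chosen with earlier results of these data known. The text names the 8 members, the introduced genes, the genes most like each member and, per list and comparison, up to 3 of the called genes with the largest change. YAP1 and WWTR1 were named after their values were seen. Alternatives were a replicate block, no date term, only the groups compared, the probe set of largest SD, median-centred arrays, genes of mean at least 5, eBayes with trend and robust, and leaving out each array. Promoter windows and gene symbols came from RefSeq tables (GRCh38.p14).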

Additional observations from a re-analysis of the deposited data

Results flagged for a closer look

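SKIL in starved HaCaT-vector had 1 array far from the others, replicate 4 at a log2 value of 10.18 against 9.94, 9.97 and 9.96. It is the only starved HaCaT-vector array of the sixth date. It was the 1 of 48 member groups of 4 to 10 arrays with such a gap, where chance gives about 1 in 20.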

How the results depend on the processing

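Of the 15 called member values, 14 kept their call with a replicate block, 15 without the date term, 9 when only the groups compared were fitted, 11 with the probe set of largest SD, 12 with median-centred arrays and 15 with eBayes trend and robust; 14 of 14 did among genes of mean at least 5, a filter that drops ANKRD1. No called value reversed. The date effects had already been subtracted from the deposited values, so the fit without the date term leaves the changes as they are. It only counts more degrees of freedom, so keeping every call there was not a test of them. The replicate block ended the serum call of TGFBI between HaCaT-EGFR and HaCaT-vector (adjusted p = 0.0504). It also called TGFB2 there (0.0175), and in the starved lines CCN2 in HaCaT-EGFR and HaCaT-p65 and TGFB2 in HaCaT-EGFR (0.047). Whether the numbers pair the starved arrays was not tested.

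Some counts of called members moved. With the replicate block, HaCaT-EGFR over HaCaT-vector starved went from 1 to 3 and HaCaT-p65 over HaCaT-vector starved from 0 to 1. Without the date term these became 5 and 4, LY294002 2, and serum over starvation 2 in HaCaT-EGFR, 1 in HaCaT-p65 and 3 in HaCaT-vector. That fit has the same changes and does not count the dates already subtracted. Its added calls are therefore not added evidence. With only the groups compared, the count was 0 for HaCaT-vector over HaCaT, HaCaT-EGFR over HaCaT-vector starved, U1026 and serum in HaCaT-EGFR, 5 for HaCaT-p65 over HaCaT-vector starved and 3 for serum in HaCaT-vector. The last 2 and serum in HaCaT-p65 were fitted there without dates, since their groups share none, so those counts too leave the subtracted dates out. The probe set of largest SD gave 1 for EGF in HaCaT-EGFR and 0 for HaCaT-EGFR over HaCaT-vector starved, U1026 and serum in HaCaT-EGFR, and median centring gave 0 for the same 3. The filter on the mean and the trend and robust setting each gave 2 for HaCaT-EGFR over HaCaT-vector starved. The cause of the other movements was not tested.

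Leaving out each array, the count ran from 1 to 3 for HaCaT-EGFR over HaCaT-vector in serum, 2 to 3 for HaCaT-p65, 0 to 2 for HaCaT-EGFR starved, and 0 to 1 for HaCaT-p65 starved, serum in HaCaT-EGFR and U1026. It stayed at 5 for HaCaT-HRAS, 2 for HaCaT-vector over HaCaT and 0 for the rest. Without the sixth date, added after seeing the data, HaCaT-EGFR over HaCaT-vector in serum had 2, with TGFBI at an adjusted p of 0.0672, and the other 9 comparisons that could be fitted had the same count. LY294002 and U1026 rest on 1 array per line, which limits what can be detected.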
